A study of Mus musculus with 4 samples.

Results

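Read counts were examined for 2883 start-site windows whose Ensembl mouse identifiers run from ENSMUSG00000080700 to ENSMUSG00000083999, out of 51121 windows in the table (5.64%). This stretch of the Ensembl numbering was issued mostly to manually annotated pseudogenes, and it stands in here for that gene class. Members were chosen by number alone, with no measured value in the rule, though earlier results of these data were known. The identifiers were not paired with names, positions or gene classes here, so the class was not checked against an annotation, and whether single members are processed copies is not known from these data. The 17863 windows with identifiers up to ENSMUSG00000063999 served as the comparison windows. They are taken as mostly protein-coding, which was likewise not checked against an annotation. The 30375 windows with all other identifiers, which are numbered above the comparison windows, served as a second reference.

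The series holds 4 libraries from sorted splenic regulatory T cells (Tregs) of C57BL/6 mice, an anti-H3K9me3 precipitate and an input for each of the wild-type and KAP1-deficient genotypes. The table has 2 columns. One is headed Foxp3cre with KAP1+/+ and is called the KAP1-sufficient library; the other is headed Foxp3cre with KAP1f/f, a floxed allele, and is called the KAP1-deficient library. Both genotypes thus carry Foxp3cre, which is active in cells that express Foxp3. The headings name no antibody, and the columns were read as the H3K9me3 libraries from the study's description. Neither was set against an input, and the sources used here give no age or number of animals per library. The windows of the KAP1 gene and of Treg marker genes were not examined.

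A processed pseudogene arises when a messenger RNA is copied into DNA and inserted elsewhere in the genome. It usually has no introns and leaves the promoter of its parent gene behind, so the annotated start of such a copy is the 5′ end of the inserted sequence and not a promoter in the usual sense. Other pseudogenes are decayed duplicates of whole genes. H3K9me3 is a histone mark of silent chromatin. KAP1, also called TRIM28, is brought to DNA by KRAB zinc finger proteins, many of which recognise mobile elements, and it recruits the methyltransferase SETDB1, which deposits this mark.

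The windows of the pseudogene-rich block held fewer reads than the comparison windows in both libraries. In the KAP1-sufficient library, which held 480326 reads over all windows, block windows averaged 6.89 reads (95% Poisson interval of the mean 6.79 to 6.98). The median member had 6, and the middle 50% of members had 3 to 10. The comparison windows averaged 11.99 reads (11.94 to 12.04) in that library, with a median of 12 and a middle 50% from 8 to 16. The block therefore stood at 0.57 times the comparison level, and its upper quartile lay below the comparison median.

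In the KAP1-deficient library, which held 228009 reads, block windows averaged 3.51 reads (3.44 to 3.58). The median member had 3, and the middle 50% had 1 to 5. The comparison windows averaged 5.39 reads (5.36 to 5.42), with a median of 5 and a middle 50% from 3 to 7. Here the block stood at 0.65 times the comparison level, so the shortfall was smaller in the KAP1-deficient library. With 5.64% of the windows, the block supplied 4.13% of the KAP1-sufficient reads and 4.44% of the KAP1-deficient reads. The intervals cover counting error only, since each genotype had 1 library, and no test between genotypes was possible.

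High read counts were rare in the block. Only 33 members (1.14%) held 30 or more reads over both libraries, against 1210 comparison windows (6.77%), and the most-read member held 43. Over both libraries the median member had 10 reads, and 81.3% of the comparison windows had more than that. The distribution of reads per window was displaced as a whole and was not produced by a small group of empty windows. Among windows with at least 1 read, block windows still averaged 7.52 KAP1-sufficient and 3.84 KAP1-deficient reads, against 12.3 and 5.52 in the comparison windows, which is 0.61 and 0.70 times as many.

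The low level was in part shared by the higher numbers in general. The remaining windows averaged 8.11 KAP1-sufficient (8.08 to 8.14) and 4.003 KAP1-deficient reads (3.98 to 4.03), and 2.79% of them held 30 or more reads over both libraries. The block stood at 0.85 and 0.88 times their means over all windows, and at 0.76 and 0.79 times over windows with reads.

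**Figure D1:**
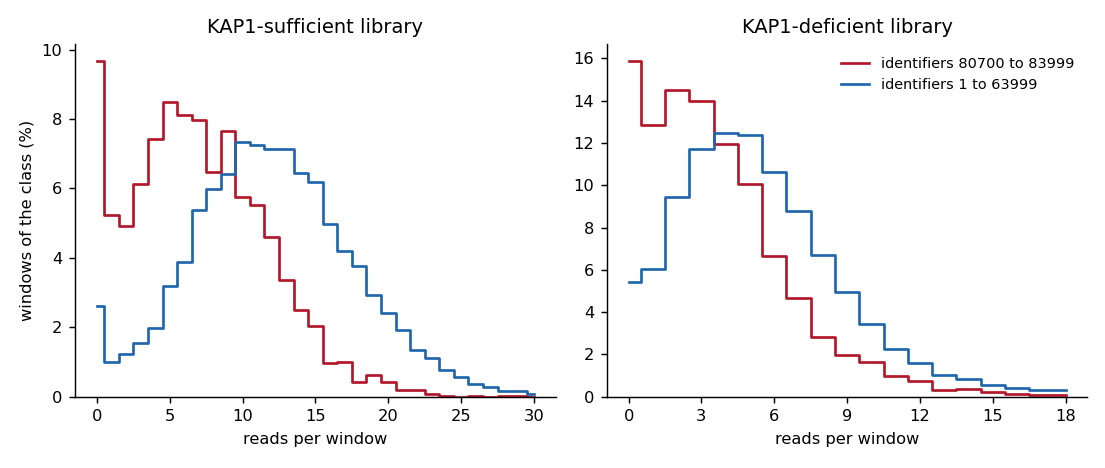
Percentage of windows (vertical axis) with each number of reads (horizontal axis) in the KAP1-sufficient library (left) and the KAP1-deficient library (right), for the block (red) and the comparison windows (blue). The red curve lies to the left in both panels, with medians of 6 against 12 and 3 against 5 reads, and has the higher value at 0 reads.

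Windows without any read were more frequent in the block than among the comparison windows. Both libraries were at 0 in 244 members, 8.46% of the block (exact binomial 95% interval 7.47 to 9.54), against 418 comparison windows, 2.34% (2.12 to 2.57), a share 3.62 times as large in the block. Per library, 0 reads is compatible with a level as high as 3.69 reads (upper limit of the 95% Poisson interval), and mappability of these windows was not tested. A zero share of this size was not particular to the block: the windows with all other numbers were at 0 in 18.1% of cases (17.6 to 18.5), a higher share than the block's.

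Taken library by library, 279 members (9.68%, 8.62 to 10.8) had no KAP1-sufficient read and 458 (15.9%, 14.6 to 17.3) had no KAP1-deficient read. The comparison shares were 2.62% and 5.41%. Of the 279, 35 had reads in the KAP1-deficient library alone. Of the 458, 214 had reads in the KAP1-sufficient library alone, that library being 2.11 times as deep. Windows with 1 to 4 reads over both libraries were also more frequent, at 12.4% of the block and 3.03% of the comparison windows, so the low end of the block held sparse as well as empty windows.

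Zero windows were spread over the numbering of the block. In 11 stretches of 300 consecutive numbers, with 255 to 268 windows each, the zero share ran from 6.39% to 10.9% with a median of 8.27%. Of 2523 pairs of consecutive numbers, 22 were at 0 in both members. Between consecutive members the reads correlated at 0.01 (Pearson) and 0.02 (Spearman), against 0.08 and 0.07 over 7111 such pairs in the comparison windows. These are descriptions across windows of the same libraries.

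On the scale of library totals, the block's reads were tilted toward the KAP1-deficient library, while those of the comparison windows were tilted the other way. The block held 19855 KAP1-sufficient and 10124 KAP1-deficient reads, a KAP1-deficient to KAP1-sufficient ratio of 1.07 after division by the ratio of library totals (exact 95% interval 1.05 to 1.10). The comparison windows held 214124 and 96286 reads, a ratio of 0.95 (0.94 to 0.95). The block's ratio was 1.13 times the comparison ratio (counting interval 1.11 to 1.16), a value that does not depend on how the libraries are scaled.

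The windows with all other numbers lay between these, at a ratio of 1.04 (1.03 to 1.05), and the block's ratio was 1.03 times theirs (1.01 to 1.06). Most of the contrast was therefore between the comparison windows and the higher numbers in general. A ratio above 1 here is a larger share of the reads in windows, and not a larger amount of H3K9me3 in the cells. Median-of-ratios scaling put the block at 1.10 (1.08 to 1.13), the comparison windows at 0.97 (0.97 to 0.98) and the remaining windows at 1.07 (1.06 to 1.08), in the same order.

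**Figure D2:**
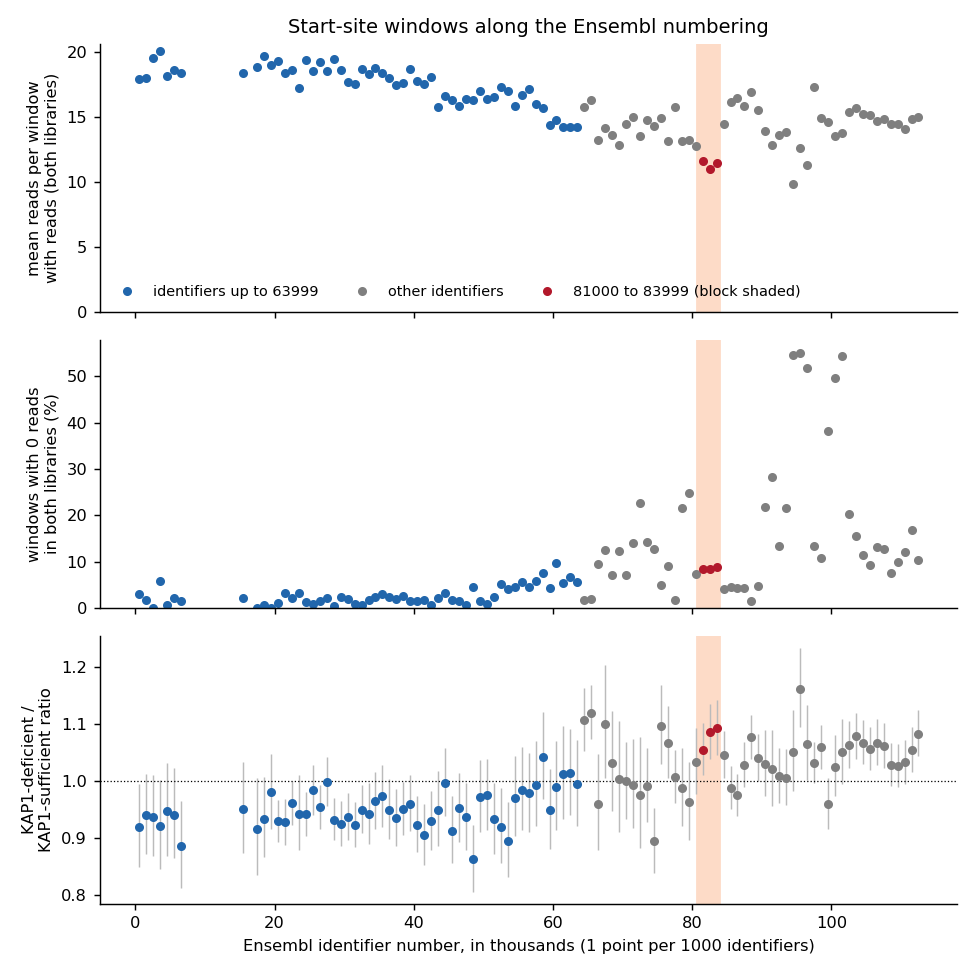
Mean reads per window with reads (top), share of windows at 0 in both libraries (middle) and pooled KAP1-deficient to KAP1-sufficient ratio with exact 95% intervals (bottom), for each bin of 1000 numbers of the Ensembl numbering with at least 100 windows. The 3 bins wholly inside the shaded block (red) have 11.02 to 11.6 reads per window with reads and ratios of 1.06 to 1.09, while the 55 bins of comparison windows (blue) have ratios of 0.86 to 1.04.

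Set along the numbering, few other stretches had as few reads in their non-empty windows as the block, whereas its zero share, ratio and mean over all windows were matched elsewhere. Of 104 bins of 1000 consecutive numbers with at least 100 windows, 3 lay wholly inside the block. Windows with reads averaged 11.02 to 11.6 reads over both libraries in these 3, and 2 of the other 101 bins fell below the highest of them. Over all windows, empty ones included, the 3 bins averaged 10.09 to 10.6 reads, and 10 of the other 101 bins fell below the highest of them. The zero share in the 3 was 8.43% to 8.92%, and 33 of the other 101 bins were above this range.

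The ratio of the 3 bins ran from 1.06 to 1.09. None of the 55 bins of comparison windows reached the lowest of these, their ratios having a median of 0.95 and running from 0.86 to 1.04. Among the 101 bins not wholly inside the block, 16 exceeded the lowest and 5 exceeded the highest block value.

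Averages over stretches of members differed little, although single members varied widely in reads. In the 11 stretches of 300 numbers, a division chosen after the data had been seen, mean KAP1-sufficient reads ran from 6.53 to 7.49 (median 6.85) and mean KAP1-deficient reads from 3.20 to 4.0 (median 3.5). The ratio ran from 1.01 to 1.14 with a median of 1.08. It was above the comparison ratio of 0.95 in 11 of 11 stretches, and the 95% interval lay wholly above that value in 8. The interval held the block's own 1.07 in 11 of 11 stretches, so no stretch was resolved from the whole at this depth. The neighbouring stretches outside the block had ratios of 0.996 (0.91 to 1.09) just below it and 1.01 (0.94 to 1.10) just above. Both were also above 0.95, with intervals that held 0.95 as well as 1.07, so a ratio above that of the comparison windows was not particular to the block.

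**Figure D3:**
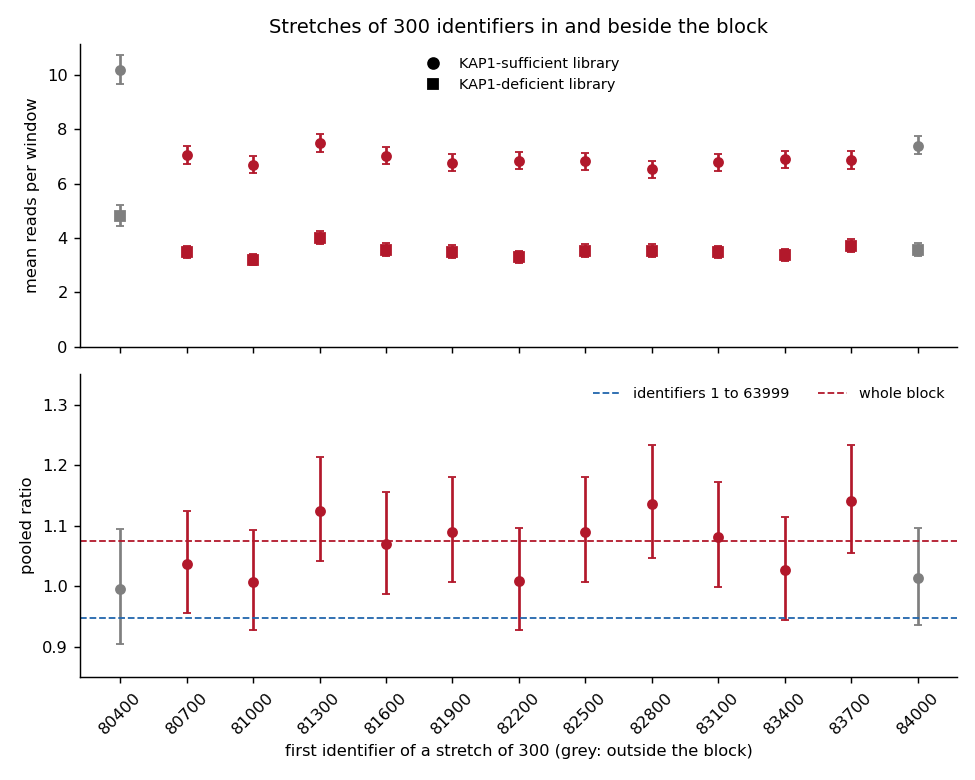
Mean reads per window with 95% Poisson intervals (top; circles KAP1-sufficient, squares KAP1-deficient) and pooled ratio with exact 95% intervals (bottom) for 11 stretches of 300 identifiers in the block (red) and the neighbouring stretch on each side (grey). The dashed lines mark the ratio of the block (1.07) and of the comparison windows (0.95), and the 11 red points and both grey points lie above the latter.

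At the edges, the first 300 numbers of the block averaged 7.06 KAP1-sufficient and 3.47 KAP1-deficient reads, with a zero share of 6.95%. The 134 windows with the 300 numbers just below averaged 10.2 and 4.82 reads with a zero share of 2.99%. The last 300 numbers averaged 6.86 and 3.72 reads, and the 300 numbers just above the block averaged 7.40 and 3.56. The lower edge thus coincided with a step in read level, whereas the windows just past the upper edge held about as many reads as the members.

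The ratio rose with read level in the block, as it did in the comparison windows, and above the lowest read level it lay higher in the block. Members with 1 to 4 reads over both libraries (357 windows) had a pooled ratio of 0.97 (0.84 to 1.12). Those with 5 to 9 reads (766 windows) had 1.04 (0.98 to 1.10), and those with 10 to 14 reads (775 windows) 0.9995 (0.96 to 1.04). The ratio was 1.05 (1.00 to 1.10) at 15 to 19 reads and 1.19 (1.12 to 1.27) at 20 to 24 reads. It reached 1.55 (1.38 to 1.75) in the 33 members with 30 or more reads. The higher ratios thus lay at 20 reads and above.

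Comparison windows had lower ratios at the same read level. They stood at 0.85 (0.75 to 0.95) with 1 to 4 reads, 0.80 (0.76 to 0.83) with 5 to 9, 0.86 (0.84 to 0.88) with 10 to 14 and 0.94 (0.92 to 0.95) with 20 to 24. With 30 or more reads they stood at 1.19 (1.17 to 1.22), the level the block had reached at 20 to 24. The block exceeded the comparison windows in 7 of 7 bins, by factors of 1.14 to 1.30, and the counting interval of the factor lay above 1 in 6 of them. The exception was the bin of 1 to 4 reads, where the factor was 1.14 (0.95 to 1.37).

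**Figure D4:**
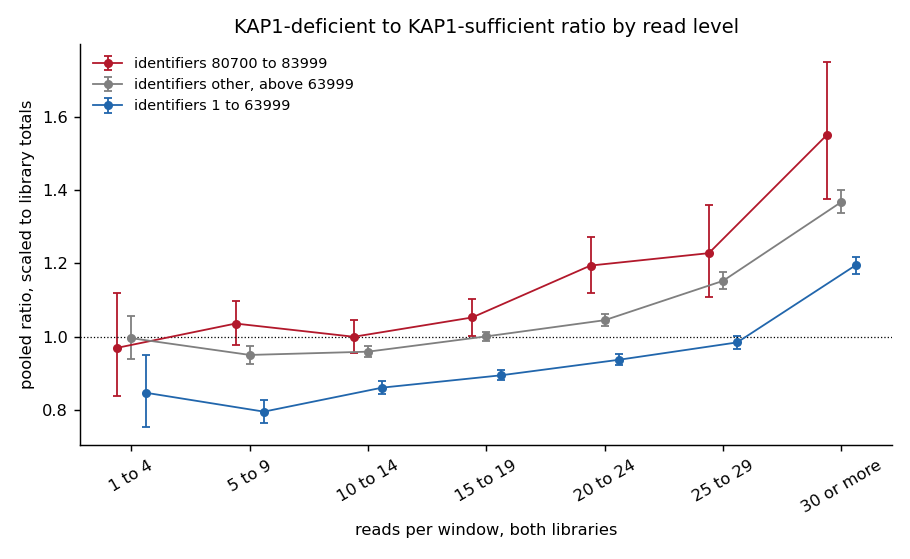
Pooled KAP1-deficient to KAP1-sufficient ratio, scaled to library totals, with exact 95% intervals (vertical axis) for windows binned by their reads over both libraries (horizontal axis). The block (red) lies above the comparison windows (blue) in each bin and both rise to the right, to 1.55 and 1.19 at 30 or more reads, with the remaining identifiers (grey) between them except in the bin of 1 to 4 reads.

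Because the block held fewer reads and low-read windows had low ratios, the contrast was larger at equal read level than in the pooled reads. Had the block's reads been divided at the comparison windows' ratio in each bin, its pooled ratio would have been 0.88. The observed 1.07 was 1.21 times that (1.19 to 1.24), against 1.13 times without regard to read level. Set against the remaining windows in the same way, the observed ratio was 1.07 times the one their bins give (1.04 to 1.10), and the interval lay above 1 in 4 of 7 bins.

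The size of the rise itself was not resolved between the classes. Members with 20 or more reads (284 windows) had a ratio of 1.26 (1.195 to 1.32) and members with fewer than 10 reads (1367 windows, those at 0 included) 1.03 (0.97 to 1.08), a 1.22-fold rise (1.14 to 1.31). In the comparison windows the ratio went from 0.80 (0.77 to 0.83) to 1.01 (1.00 to 1.02), a 1.26-fold rise (1.22 to 1.31). The block's rise was 0.97 times the comparison rise, with an interval of 0.89 to 1.05, so rises that differ by as much as these limits could not be told apart at this depth.

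A sort by the same reads that are then compared can bring up windows with an excess in either library. Windows were therefore also sorted by 50% of the reads of 1 library, drawn at random, and measured on the remaining reads. Sorted on KAP1-sufficient reads, the rise in the block was 1.12-fold (1.04 to 1.201) and in the comparison windows 1.12-fold (1.09 to 1.15). Sorted on KAP1-deficient reads, it was 1.15-fold (1.07 to 1.24) and 1.16-fold (1.14 to 1.19). High and low windows had at least 7 and at most 3 of the KAP1-sufficient reads sorted on. For the KAP1-deficient reads sorted on, the limits were at least 3 and at most 1. The rise was smaller than under the first sort in both classes. These sorts used other limits and fewer reads, so the sizes of the rises are not directly comparable between sorts.

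The offset between the classes remained under these sorts. At equal level the block's ratio was 1.18 times the comparison ratio (1.15 to 1.22) in the sort on KAP1-sufficient reads and 1.17 times (1.13 to 1.203) in the sort on KAP1-deficient reads. It exceeded the comparison ratio in 6 of 7 and 7 of 7 bins. The exception was the bin with 0 of the KAP1-sufficient reads sorted on, where both classes stood at 0.92 (0.79 to 1.07 in the block and 0.82 to 1.03 in the comparison windows). Set against the remaining windows, the block's ratio at equal level was 1.05 times (1.02 to 1.08) and 1.06 times (1.03 to 1.09) theirs in these sorts. The interval lay above 1 in 3 of 7 and 2 of 7 bins.

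**Figure D5:**
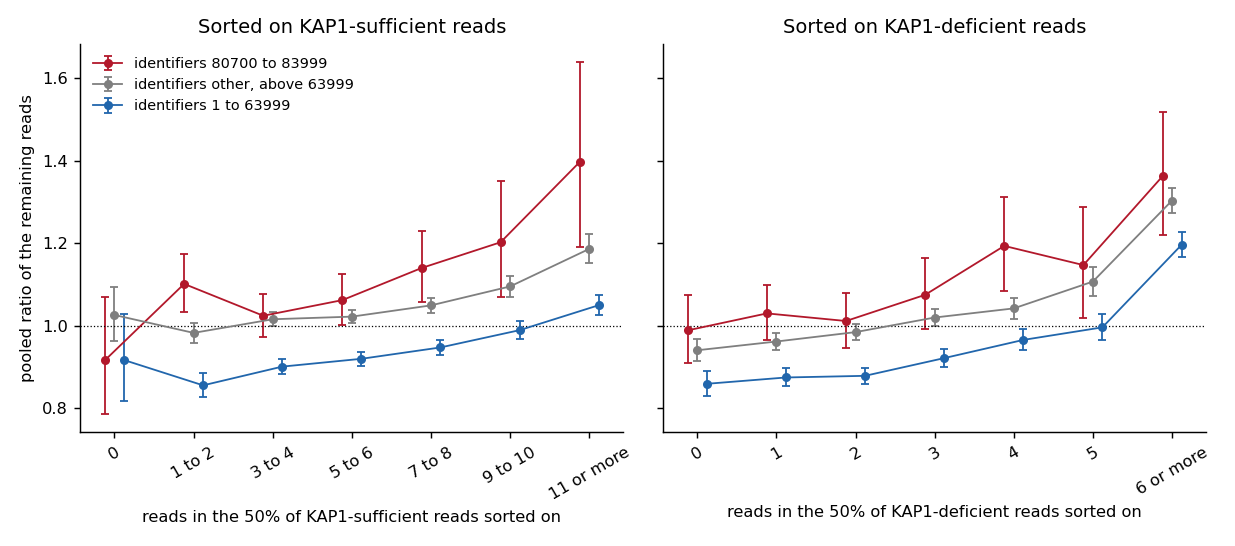
Pooled ratio of the remaining reads with exact 95% intervals (vertical axis) for windows sorted by a randomly drawn 50% of the reads of the KAP1-sufficient (left) or the KAP1-deficient library (right). In the left panel the block (red) and the comparison windows (blue) both start at 0.92 at 0 reads and then separate, and in the right panel the block lies above in 7 of 7 bins.

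For the fold of a window, 2 reads per library on average were added, in proportion to library totals. A member was called where this fold between the scaled libraries was at least 2. The exact 95% interval of the share of reads, with none added, also had to exclude the library share. Only windows with 5 or more reads on average per library were tested, a level that 1516 members (52.6%) and 15151 comparison windows (84.8%) reached. Higher in the KAP1-deficient library were 54 members, 3.56% of those tested (2.69 to 4.62), where the background over all windows tested was 2.49%. Lower were 20 members, 1.32% (0.81 to 2.03), where the background was 1.81%. Among the comparison windows 272 were higher (1.80%, 1.59 to 2.02) and 339 lower (2.24%, 2.01 to 2.49).

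Higher calls thus made up 73.0% of the block's 74 calls and 44.5% of the comparison windows' 611. They were 66.2% of the 844 calls in the remaining windows and 57.9% of the 1529 over all windows. The share in the comparison windows depended on the setting. It turned to more higher than lower calls at 52.1% with median-of-ratios scaling (295 higher, 271 lower) and at 59.6% with a 99% interval (81 higher, 55 lower). At these settings 76.4% and 90.9% of the block's calls were higher. The remaining windows, with 559 higher (2.96%, 2.72 to 3.21) and 285 lower (1.51%, 1.34 to 1.69), had intervals that overlap those of the block. The median log2 ratio of the tested members was 0.06, with quartiles of -0.45 and 0.51, against -0.05 over all windows tested and -0.10 in the comparison windows. Among members with at least 1 read, 51.3% were above the ratio of the library totals, against 42.5% of the comparison windows. The share was 49.4% in the remaining windows with reads and 46.8% over all windows with reads, so the classes overlapped widely window by window. With a 99% interval, 10 members were higher (0.66%, against 0.67% of all windows tested) and 1 was lower (0.07%, against 0.28%), so the excess of higher calls over the background was not seen at that setting.

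Called members rested on few reads. The 54 higher members had 10 to 43 reads over both libraries (median 19), with 3 to 20 in the KAP1-sufficient and 7 to 26 in the KAP1-deficient library. The 20 lower members had 10 to 22 reads (median 12), and 12 of them had no KAP1-deficient read. No member called higher was at 0 in the KAP1-sufficient library. Of the 33 members with 30 or more reads, 30 were above the ratio of the library totals, 8 were called higher (24.2%) and 0 lower. Of all 2090 windows at that level 70.7% were above it, with 177 called higher (8.47%) and 17 lower (0.81%). The comparison windows of that level had 64.5% above it, with 81 higher and 14 lower of 1210, and the remaining windows 78.9%, with 88 higher and 3 lower of 847. The members are few, and they were sorted on the reads compared.

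The member with the most reads was also the first of the higher calls when these were ranked by the lower limit of their interval. The window of ENSMUSG00000083300 held 17 KAP1-sufficient reads (95% Poisson interval 9.90 to 27.2) and 26 KAP1-deficient reads (17.0 to 38.1), a scaled ratio of 3.22 (1.68 to 6.33). The window of ENSMUSG00000082922 ranked next, with 10 reads (4.80 to 18.4) and 18 reads (10.7 to 28.4), a ratio of 3.79 (1.66 to 9.19). In both windows the raw count was higher in the KAP1-deficient library although that library was the shallower. ENSMUSG00000083894, the member with the second most reads, held 20 and 22, a ratio of 2.32 (1.21 to 4.48).

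In the other direction, the window of ENSMUSG00000082279 held 15 KAP1-sufficient reads (8.40 to 24.7) and 0 KAP1-deficient reads. The upper 95% limit of its scaled ratio was 0.59. The window of ENSMUSG00000080731 held 12 reads (6.20 to 21.0) and 0, with an upper limit of 0.76, and was 1 of 5 members with these counts, taken first by number. These are extremes among 1516 members, so their intervals, each set for 1 window, are too narrow for them.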

How the data were processed

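The authors deposited 1 table of whole-number read counts per window around transcription start sites, per the file headers, for 51121 Ensembl identifiers. The submitters' processing notes name Bowtie2 2.2.9, Picard 2.1.1, bedtools 2.26.0 and mm10. The sources used here do not state what each did, how wide a window was, which annotation was taken, or whether duplicate or ambiguously mapped reads were removed. A filter on mapping quality would lower counts where a window resembles other sequence, as pseudogenes can resemble their parents; this was not tested. Of the identifiers, 0 matched the gene table used here, so no names, positions or sequences are given.

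Each library's counts were divided by its sum over the table. Pooled ratios have exact (Clopper-Pearson) 95% intervals and ratios between classes log-normal counting intervals. With 1 library per genotype there is no p-value. Windows can share reads, so intervals may be too narrow. Named members were the first 2 calls in each direction by the near limit of the interval and the 2 with most reads. The members, the rule of a call and the comparisons were chosen with earlier results of these data known. Tools were numpy 2.4.6 and pandas 2.3.3 under Python 3.11.15, with scipy 1.17.1.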

Additional observations from a re-analysis of the deposited data

How the results depend on the processing

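There were 33 alternatives for the block's values and the comparison windows' zero share. Of these, 17 stayed within the counting interval of the value reported (for calls, within 1.5 times). The count with a reversed direction was 0, but zero shares, mean reads and call counts have no direction to reverse. With a 99% interval, higher calls in the block no longer exceeded the background (0.66% against 0.67% of all windows tested). The block's ratio was 1.10 with median-of-ratios scaling. Its zero share was 9.68% by KAP1-sufficient reads alone and 15.9% by KAP1-deficient reads alone, and its means were 7.52 and 3.84 reads over members with reads. The rise with read level was 1.12 in the sort on KAP1-sufficient reads. The ratio at equal level was 1.18 and 1.17 in the sorts on KAP1-sufficient and KAP1-deficient reads, and 1.07 against the other higher-numbered identifiers. In a narrower block of 2192 windows the ratio was 1.07. Calls in the block, 20 lower and 54 higher, were 1 and 6 with 10 reads added, 0 and 3 with a mean of at least 20 reads (4 members tested) and 1 and 10 with a 99% interval; with no filter they were 20 and 64. With the 2 reads added replaced by 0.5, calls stayed at 20 and 54. Higher calls at the main setting were 3.56% of members tested, against 2.49% of all windows tested. These shares were 0.40% against 0.31% with 10 reads added, 2.43% against 2.13% unfiltered and 3.56% against 2.58% with 0.5 reads. At the 20-read limit, 3 of 4 members were higher, against 11.8% of all windows tested. Lower calls were 0.07% against 0.32%, 0.76% against 1.43% and 1.32% against 1.81% with 10 reads, unfiltered and with 0.5 reads. The sorts on KAP1-deficient reads, the comparison with other identifiers and totals without the 2 most-read windows (ratio 1.07) were chosen after seeing the data. The zero share of the comparison windows was 1.73% in their 11747 lowest-numbered windows. Depth, a median of 6 and 3 reads per member, limits each single-window statement. No paired analysis was possible because no genotype had a second library.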

Other observations

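Read density varied more between block windows than between comparison windows. Over the 2639 members with reads, and with the Poisson variance subtracted, the coefficient of variation was 45.7% for KAP1-sufficient and 58.5% for KAP1-deficient reads, against 33.0% and 48.1% over 17445 comparison windows. Over 24888 of the remaining windows it was 40.7% and 53.7%, between these. The 2 most-read windows were left out of that value, and it is not given with them included. The densities of the libraries correlated at 0.91 in the block and 0.88 in the comparison windows after the same subtraction. Without subtraction the counts of the block correlated at 0.54 (Pearson) and 0.53 (Spearman). These correlations are across windows of the same 2 libraries. In both classes the KAP1-deficient library had the larger relative spread.

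Shares of single members scattered little beyond counting noise around the block's own share. Their squared deviations were 1.07 times the binomial variance, against 1.15 times in the comparison windows around theirs, at a mean of 11.4 and 17.8 reads per window with reads. The part of fewer reads per window in this difference was not tested.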
